A study of Mus musculus with 3 samples.

Results

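The genes described here encode subunits of the Polycomb repressive complexes PRC1 and PRC2, of Trithorax group complexes and of the BAF and PBAF chromatin remodelling complexes. They were taken from a fixed list of 48 gene symbols, and all 48 were found among the 23397 genes of the series. The list holds 9 PRC2 genes, 15 PRC1 genes, 7 Trithorax genes and 17 BAF and PBAF genes. RNA was measured in endothelial cells sorted as Tie2+CD31+CD41- from embryoid bodies, which are floating aggregates of differentiating mouse embryonic stem cells, after 4.75 days in culture. There were 3 libraries, 1 per group, all from embryonic stem cell lines and with no treatment beyond the differentiation itself. The groups are wild type (WT), SclKO, which lacks the blood and endothelial transcription factor Scl (gene symbol Tal1), and a line labelled Gata1&2KO, or Gata12KO, for a knockout of the zinc-finger factors Gata1 and Gata2. The sources used here do not say how many clones or cultures stood behind each library.

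Polycomb and Trithorax proteins keep developmental genes off or on through cell division. PRC2 methylates histone H3 at lysine 27 through its catalytic subunit Ezh1 or Ezh2, and PRC1 compacts chromatin and ubiquitinates histone H2A. Trithorax group complexes methylate H3 at lysine 4 or remove the PRC2 mark, and the BAF and PBAF complexes move nucleosomes with the energy of ATP. Many subunits come from small families of paralogues that replace each other, so the choice of paralogue sets which version of a complex a cell can build. In embryonic stem cells and early mesoderm both systems act on the genes of later lineages, those of blood and heart among them.

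Values are FPKM, in which the fragment count of a transcript is divided by its length and by the library total, so that levels of different genes can be set beside each other within a library. For most entries the deposited lower and upper bounds have the width of 2 Poisson standard deviations on each side, which holds no error between cultures, and these entries imply totals of 31.6, 28.3 and 50.3 M fragments (M, mega) in WT, SclKO and Gata12KO. With 1 library per group there was no replicate check and no test of any difference, so each difference below describes these libraries. Tal1 had 51.0 FPKM in WT, 1.59 in SclKO and 38.7 in Gata12KO. Gata1 had 4.64, 0 and 5.66 FPKM and Gata2 12.05, 5.81 and 44.9 FPKM in the same order, so neither level shows the knockout that the label Gata12KO names. The wording "the library labelled Gata12KO" is used for that reason. All 10 pan-endothelial markers were above 1 FPKM in each library, with summed levels of 479, 257 and 572 FPKM in WT, SclKO and the library labelled Gata12KO. The 9 erythroid markers summed to 185, 1.64 and 11.5 FPKM, and 4 of them were listed at 0 in SclKO. The 7 mesenchyme markers summed to 82.7, 145 and 31.5 FPKM, and the 9 cardiac markers to 97.7, 120 and 53.3 FPKM. For the 8 pluripotency markers the sums were 48.0, 27.8 and 39.3 FPKM, and for the 5 leukocyte markers 20.5, 3.31 and 13.9 FPKM. The 15 proliferation markers summed to 1051, 1066 and 1071 FPKM. The part of these shifts in the results below was not tested. In bulk RNA, fewer cells of a type and less RNA per cell cannot be told apart.

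Most of the subunit genes were well expressed. Of the 48 genes, 36 had at least 10 FPKM in WT, 37 in SclKO and 35 in the library labelled Gata12KO, and their medians were 19.97, 18.9 and 18.5 FPKM. The medians over all 11080 genes with at least 1 FPKM in any library were 7.89, 7.77 and 7.64 FPKM. Rbbp7, a histone-binding subunit that PRC2 shares with deacetylase complexes, was the most abundant in each library, at 75.8 FPKM in WT, 109 in SclKO and 80.3 in the library labelled Gata12KO. Phf19, an accessory subunit that guides PRC2 to chromatin, was the least abundant at 0.4002, 0.349 and 0.322 FPKM. It rested on 45, 35 and 58 fragments and was the 1 gene of the list under 1 FPKM in each library, which left 47 genes in the counts of calls. Across the 32 genes with a single RefSeq entry, Arid1a had the most fragments behind it (11342 in WT) and Cbx8 the fewest (30 in WT).

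**Figure D1:**
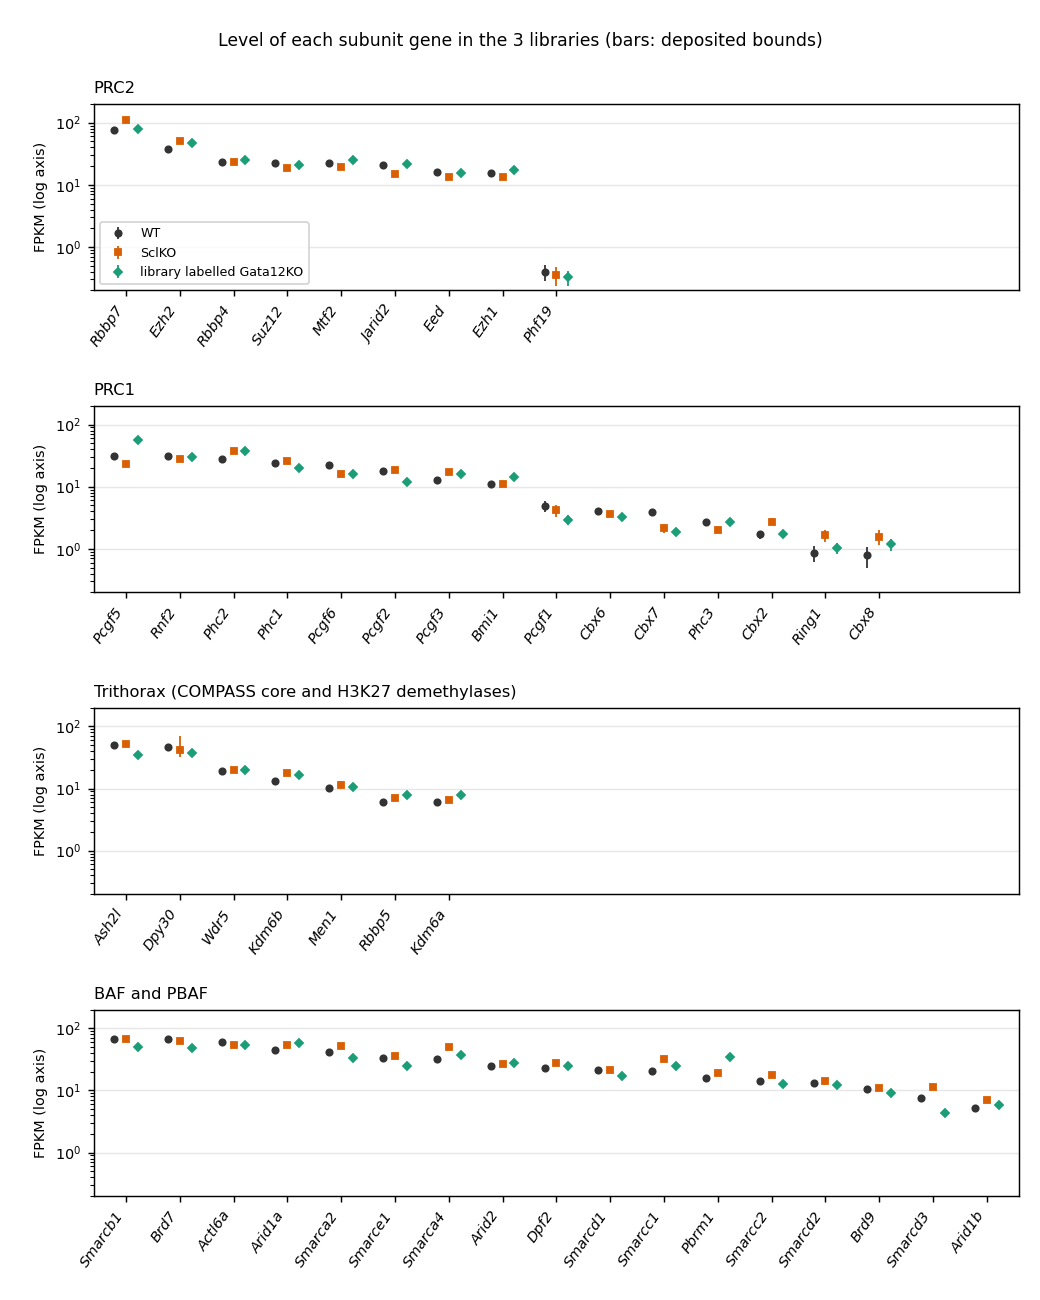
Level of each of the 48 genes in FPKM on a log axis, in 4 panels by complex and ordered by the WT level, with 1 point per library and bars for the deposited bounds. Most points of a gene lie close together, and the library labelled Gata12KO stands apart for Pcgf5 (55.8 FPKM against 31.1 in WT) and Pbrm1 (34.0 against 15.8).

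The call rule asked for at least 1 FPKM in any library, for a ratio of at least 2-fold after 1 FPKM was added to both levels, and for deposited bounds that did not overlap. Folds said to be by FPKM are ratios of the levels themselves, and log2 ratios include the added 1 FPKM. In SclKO against WT, 0 of the 47 genes were called in either direction, where 2.12% of all genes were called higher and 4.24% lower. Pbrm1 was called higher in the library labelled Gata12KO than in WT and 0 genes were lower, where 0.767% of all genes were called higher and 3.75% lower. Pcgf5 was called higher and Smarcd3 lower when that library was set against SclKO, where the background was 3.38% higher and 3.75% lower. A 1.5-fold limit added few. It called Smarca4 higher and Cbx7 lower in SclKO against WT, where 7.89% and 11.3% of all genes were called. It called 4 genes between the library labelled Gata12KO and WT, with Pcgf5 and Pbrm1 higher and Cbx7 and Smarcd3 lower, where the background was 4.77% higher and 14% lower. Against SclKO it called 2 genes higher (Pcgf5 and Pbrm1) and 4 lower (Pcgf2, Ash2l, Smarca2 and Smarcd3), where the background was 7.86% and 11.3%. At 1.5-fold against WT, 2.13% of the 47 genes were called lower in SclKO and 4.26% in the library labelled Gata12KO. The shares called higher were 2.13% and 4.26% too. Each share was below that of all genes, but rests on only 1 or 2 genes. The background moved with the processing described below. Between the library labelled Gata12KO and WT, 415 of all genes were lower at 2-fold. Removing the trend over transcript length left 169, and rescaling to the library sum left 118. Bounds were apart, whatever the fold, for 28 of the 47 genes in SclKO against WT (58.0% of all genes) and for 33 between the library labelled Gata12KO and WT (61.8% of all genes). Between the library labelled Gata12KO and SclKO they were apart for 33 of the 47 genes (58.3% of all genes). The described genes have higher median levels than all genes, and the part of their level in these counts was not tested. The comparisons share libraries and are not independent of each other.

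Small ratios moved with the scaling between libraries. Over all expressed genes the median log2 ratio was -0.03 in SclKO against WT and -0.08 in the library labelled Gata12KO against WT, and over the 47 genes it was 0.08 and 0.05. Rescaling to the library sum (TPM) shifted the median of all genes by -0.11 and 0.60, and rescaling to the sum over transcripts of 300 nt or longer by 0.12 and 0.26. Between the library labelled Gata12KO and SclKO these shifts were 0.72 and 0.14. The sign of the log2 ratio was the same under all of these scalings, median-of-ratios scaling and removal of the length trend for 30 of 47 genes in SclKO against WT, for 24 in the library labelled Gata12KO against WT and for 18 in the library labelled Gata12KO against SclKO. Under TPM the median of all genes was 0.52 for the library labelled Gata12KO against WT and 0.66 for it against SclKO, and a TPM ratio is to be read against these. Shares within a family, which scaling leaves as they are, carry the account of paralogues.

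Ratios also followed transcript length. Across 10992 genes Spearman's rho between length and log2 ratio was 0.246 in SclKO against WT and 0.448 in the library labelled Gata12KO against WT, and across the 47 genes it was 0.123 and 0.378. These are descriptions across genes, which share libraries and are not replicates. Between the library labelled Gata12KO and WT the median log2 ratio was -0.26 for the 16 shortest subunit genes (704 to 2425 nt) and 0.14 for the 15 longest (4373 to 11325 nt). After the length trend of all genes was removed, these medians were -0.02 and -0.04.

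**Figure D2:**
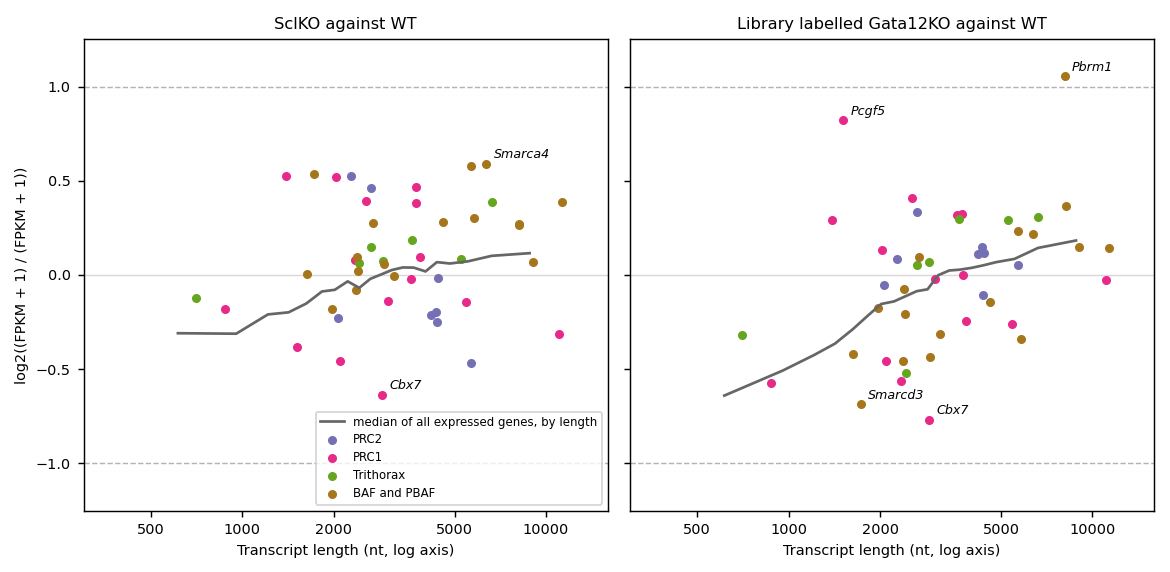
log2 ratio of each gene with at least 1 FPKM against its transcript length in nt (log axis), for SclKO against WT and for the library labelled Gata12KO against WT, coloured by complex. The grey line is the median of all expressed genes by length, dashed lines mark 2-fold, and Pbrm1 (1.06) is the 1 gene past them.

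PRC2 was present with its full core in each library. Ezh2, the methyltransferase that predominates in dividing cells, was at 37.1 FPKM (bounds 35.2 to 39.0) in WT, 51.6 (49.5 to 53.6) in SclKO and 47.0 (44.8 to 49.3) in the library labelled Gata12KO. Ezh1, its paralogue with weaker enzyme activity, had 15.8, 13.5 and 17.1 FPKM in the same order. Ezh2 was lowest in WT, with bounds apart from the other libraries, whereas Ezh1 was lowest in SclKO. Eed, which reads the methyl mark, had 15.9, 13.4 and 15.3 FPKM. Suz12, the scaffold of the complex, had 22.7, 18.9 and 21.0 FPKM. Both were lowest in SclKO.

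Among the other PRC2 genes, Jarid2, a DNA-binding accessory subunit, was at 20.9 FPKM (19.9 to 22.0) in WT, 14.9 (13.7 to 16.1) in SclKO and 21.7 (20.5 to 22.9) in the library labelled Gata12KO. SclKO was apart from both other libraries, and its log2 ratio to WT of -0.47 ranged from -0.59 to -0.33 over the scalings and the removal of the length trend. Mtf2, a Polycomb-like accessory subunit, had 22.3, 19.3 and 24.8 FPKM. Its WT and SclKO bounds overlapped, but they are sums over 6 entries, which can be wider than counting error. Rbbp4 had 23.2, 23.0 and 25.3 FPKM, while its paralogue Rbbp7 was 1.44-fold higher in SclKO than in WT by FPKM, short of both limits. An exon of Rbbp4 shares 518 nt with Sync on the opposite strand and one of Rbbp7 shares 172 nt with Txlng, and both partners were low (0.204 FPKM at most for Sync and 3.27 for Txlng). Of the 8 PRC2 genes with at least 1 FPKM, 6 had a negative log2 ratio in SclKO against WT, 5 of them below the median of all genes, and Ezh2 (0.46) and Rbbp7 (0.52) had a positive one. None passed a limit.

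Log2 ratios to WT in the library labelled Gata12KO ranged from -0.77 to 0.82 over 15 PRC1 genes and from -0.11 to 0.33 over 8 PRC2 genes. In SclKO the ranges were closer, at -0.63 to 0.52 and -0.47 to 0.52. Rnf2 (RING1B), the ubiquitin ligase of most PRC1 complexes in early embryos, had 31.0, 28.1 and 30.5 FPKM in WT, SclKO and the library labelled Gata12KO. Its paralogue Ring1 (RING1A) had 0.856, 1.66 and 1.03 FPKM, on 50, 86 and 97 fragments. Rnf2 thus held 97.3%, 94.4% and 96.7% of the pair. The low level of Ring1 limits what can be said of it, although its bounds in SclKO (1.30 to 2.01) were apart from those in WT (0.614 to 1.10).

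The 6 PCGF genes decide which PRC1 variant is built, since each binds the ligase in a different complex. Pcgf5, of a variant complex, was the most abundant of them in each library. It was at 31.1 FPKM (29.4 to 32.8) in WT, 23.6 (22.0 to 25.2) in SclKO and 55.8 (53.9 to 57.6) in the library labelled Gata12KO, on 1301, 875 and 3766 fragments. The 3 levels were apart, and the library labelled Gata12KO was 1.79-fold above WT and 2.36-fold above SclKO by FPKM. On the log2 scale with the pseudocount of 1, the ratio to WT was 0.82 as deposited and 0.92 to 1.51 under the other scalings, with 1.15 after the length trend was removed. In mm9 Pcgf5 spans 36453557 to 36530694 of chromosome 19 (forward strand) with 9 exons. Its share of PCGF levels was 31.1% in WT, 26.1% in SclKO and 47.7% in the library labelled Gata12KO. Pcgf2 (MEL18), of canonical PRC1, had 17.8, 18.8 and 11.7 FPKM, and its share went from 17.8% in WT and 20.8% in SclKO to 10.0% in the library labelled Gata12KO. Bmi1, the other canonical PCGF and a gene known for blood stem cell maintenance, had 11.2, 11.02 and 14.2 FPKM. Pcgf6, known from germ cell gene silencing, had 22.2, 15.92 and 15.95 FPKM and was highest in WT, with bounds (21.0 to 23.4) apart from the other libraries. Pcgf3 had 12.8, 17.0 and 16.2 FPKM. Pcgf1 had 4.87, 4.19 and 2.95 FPKM and is 874 nt long, where all genes of like length had a median log2 ratio near its own in the library labelled Gata12KO (-0.57 became -0.04 after the length trend was removed).

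CBX proteins read the PRC2 mark within canonical PRC1, and their levels were low. Cbx7, the main CBX of embryonic stem cells, was at 3.91 FPKM (3.49 to 4.34) in WT, 2.17 (1.83 to 2.50) in SclKO and 1.88 (1.65 to 2.12) in the library labelled Gata12KO. WT was apart from both other libraries and 1.81-fold and 2.08-fold above them by FPKM, on 335, 165 and 258 fragments. The log2 ratio to WT was -0.63 in SclKO and -0.77 in the library labelled Gata12KO, and with a pseudocount of 0.1 FPKM the second passed the 2-fold limit. Every scaling and the removal of the length trend kept both ratios negative (-0.74 to -0.52 and -0.70 to -0.29). Cbx2 had 1.71, 2.75 and 1.71 FPKM, and its bounds in SclKO (2.41 to 3.08) were apart from the others. Cbx8 had 0.786, 1.57 and 1.18 FPKM on 30, 53 and 73 fragments. Cbx6 had 4.05, 3.57 and 3.22 FPKM, but 659 nt of its exons are shared on the same strand with Npcd (1.73, 0.923 and 0.582 FPKM), which leaves the assignment of shared reads uncertain. Within these 4 genes, the share of Cbx7 was 37.4% (34.3 to 40.5) in WT, 21.5% (18.6 to 24.5) in SclKO and 23.5% (21.0 to 26.1) in the library labelled Gata12KO. Cbx2 held 16.3%, 27.3% and 21.4%. Its interval was apart from that of Cbx7 in WT alone, and in the other libraries the intervals of Cbx2 and Cbx7 overlapped, in SclKO only narrowly. Of the PHC proteins, which polymerize PRC1, Phc2 had 28.1, 37.2 and 37.6 FPKM, Phc1 24.0, 25.7 and 20.1, and Phc3 2.75, 2.01 and 2.68. The share of Phc2 was 51.2%, 57.3% and 62.3%, highest in the library labelled Gata12KO.

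The Trithorax genes on the list are the shared core of the H3K4 methyltransferase complexes (Wdr5, Rbbp5, Ash2l and Dpy30), menin, which belongs to some of these complexes, and the H3K27 demethylases. The core subunit Wdr5 had 19.03 FPKM in WT and 20.11 in SclKO, with a level between them in the library labelled Gata12KO and bounds that overlapped throughout. Rbbp5 had 6.18, 7.16 and 7.81 FPKM. Ash2l, which stimulates the methyltransferases, was at 49.6 FPKM (47.5 to 51.7) in WT, 52.0 (50.1 to 53.8) in SclKO and 34.3 (32.8 to 35.8) in the library labelled Gata12KO. The last was apart from the others and 1.51-fold below SclKO by FPKM, with a log2 ratio to WT of -0.52 that TPM turned to 0.16, below the TPM median of all genes (0.52). Dpy30, the smallest core subunit, had 46.5, 42.6 and 37.0 FPKM, with wide bounds in SclKO (32.4 to 70.6). Men1 (menin) had 10.3, 11.5 and 10.7 FPKM, with bounds that overlapped throughout. Kdm6b, the demethylase induced by many signals, had 13.3, 17.7 and 16.7 FPKM, and Kdm6a (UTX) had 6.13, 6.56 and 7.75. Kdm6b held 68.4%, 73.0% and 68.3% of the pair. Of the 7 genes, 1 had bounds apart between SclKO and WT (Kdm6b) and 5 between the library labelled Gata12KO and WT, beside 58.0% and 61.8% of all genes.

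BAF and PBAF genes had a median log2 ratio of 0.27 in SclKO against WT, where all genes had -0.03, and 15 of 17 lay above the median of all genes, with 13 of 17 after the length trend was removed. Between the library labelled Gata12KO and WT, 8 of 17 lay above the median of all genes, and 6 with the length trend removed. The median log2 ratio of the 17 genes there was -0.14, where all genes had -0.08. Set against SclKO, the library labelled Gata12KO had 4 of 17 above the median of all genes and 3 with the length trend removed. The median log2 ratio of the 17 genes was then -0.31 as deposited (all genes -0.06) and 0.47 under TPM (all genes 0.66). The ATPase Smarca4 (BRG1) was at 32.4 FPKM (30.8 to 34.1) in WT, 49.3 (47.4 to 51.2) in SclKO and 37.8 (36.3 to 39.3) in the library labelled Gata12KO. Smarcc1 (BAF155), the scaffold it binds, was at 20.9 FPKM (20.2 to 21.6) in WT, 31.7 (30.8 to 32.6) in SclKO and 24.7 (24.1 to 25.3) in the library labelled Gata12KO. Both genes had SclKO highest and WT lowest with all bounds apart, and both were 1.52-fold higher in SclKO than in WT by FPKM. Their log2 ratios, 0.59 and 0.58, lie on either side of the 1.5-fold limit. The other ATPase, Smarca2 (BRM), had 42.3, 52.3 and 33.2 FPKM, and Smarcc2 (BAF170) 14.2, 17.5 and 12.8. Of the remaining core subunits, Smarcb1 (SNF5) had 67.8, 68.1 and 50.4 FPKM, Smarce1 (BAF57) 33.9, 35.4 and 24.8 and Actl6a (BAF53A) 60.4, 53.3 and 53.4. Smarcb1 and Smarce1 were lowest in the library labelled Gata12KO, with log2 ratios to WT of -0.42 and -0.44 that became 0.26 and 0.24 under TPM, where all genes had a median of 0.52.

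Smarcd3 (BAF60C), the BAF60 paralogue known for its part in heart development, was at 7.63 FPKM (6.84 to 8.43) in WT, 11.5 (10.47 to 12.53) in SclKO and 4.37 (3.90 to 4.84) in the library labelled Gata12KO, on 371, 496 and 343 fragments. All 3 levels were apart, with SclKO 2.63-fold above the library labelled Gata12KO by FPKM. The log2 ratio between these libraries was -1.22, and it became -0.52 under TPM, which ended the call, and -1.10 after the length trend was removed. The summed cardiac and mesenchyme markers have this order too, which 5 of the 9 cardiac genes and 6 of the 7 mesenchyme genes follow singly. Their part in the level of Smarcd3 was not tested. Smarcd1 had 21.4, 21.4 and 17.0 FPKM and Smarcd2 12.99, 13.95 and 12.31. The share of Smarcd3 among BAF60 genes was 18.2% (16.5 to 19.8) in WT, 24.6% (22.6 to 26.5) in SclKO and 12.96% (11.7 to 14.3) in the library labelled Gata12KO.

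Pbrm1 (BAF180), which sets PBAF apart from BAF, was at 15.8 FPKM (15.3 to 16.4) in WT, 19.3 (18.7 to 19.9) in SclKO and 34.0 (33.4 to 34.6) in the library labelled Gata12KO. The library labelled Gata12KO stood 2.15-fold above WT and 1.76-fold above SclKO by FPKM, on 3973, 4330 and 13619 fragments in WT, SclKO and that library. In mm9 Pbrm1 spans 31832324 to 31934778 of chromosome 14 (forward strand), as 1 entry of 33 exons and 8117 nt. Its log2 ratio to WT was 1.06 as deposited, 1.15 to 1.74 under the other scalings, and with the length trend removed it was 0.88, which ended the 2-fold call. Arid2 and Brd7 are further PBAF subunits. Arid2 had 25.2, 26.5 and 28.02 FPKM and Brd7 66.3, 62.6 and 48.1 FPKM. The subunits of canonical BAF, Arid1a and Arid1b, had 44.9, 54.2 and 58.2 FPKM and 5.21, 7.12 and 5.86 FPKM. Arid1a held 89.6%, 88.4% and 90.9% of that pair. Dpf2, a BAF reader of histone marks, had 23.0, 28.1 and 24.7 FPKM, and Brd9, of the noncanonical BAF complex, 10.8, 10.9 and 9.17.

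Paralogue choice was mostly the same in the 3 libraries. In 12 of 13 families the same gene led in each library: Ezh2, Mtf2, Rbbp7, Rnf2, Pcgf5, Cbx6, Phc2, Kdm6b, Smarcc1, Smarcd1, Arid1a and Brd7. The leads of Cbx6 over Cbx7 and of Mtf2 over Jarid2 in WT were within counting error. Mtf2, Jarid2 and Phf19 were grouped by their role as PRC2 accessory subunits, and Jarid2 is not a paralogue of the other genes of that group. The exception was the ATPase pair. With all entries summed, Smarca2 held 56.6% in WT (54.8 to 58.4) and 51.5% in SclKO, where its interval (49.95 to 53.0) met that of Smarca4 (47.0 to 50.05). Smarca4 led with 53.2% in the library labelled Gata12KO (51.7 to 54.7). The lead of Smarca2 and the change of leader rest on a 9-exon Smarca2 entry described below. Without that entry Smarca4 led in each library, with 62.5%, 57.6% and 66.1%, and its share was lower in SclKO than in WT. A family was counted as shifted when any share differed by at least 10 percentage points with intervals apart, where an interval is 2 standard deviations carried over from the deposited bounds. That held for 1 family in SclKO against WT (CBX), for 3 in the library labelled Gata12KO against WT (PCGF, CBX and PHC) and for 2 in the library labelled Gata12KO against SclKO (PCGF and BAF60). Just under the limit, with all entries summed, was the ATPase pair in the library labelled Gata12KO against WT (9.82 points). The Ezh pair in SclKO against WT was just under it too (9.07 points). Ezh2 went from 70.2% in WT to 79.3% in SclKO, and stood at 73.4% in the library labelled Gata12KO.

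**Figure D3:**
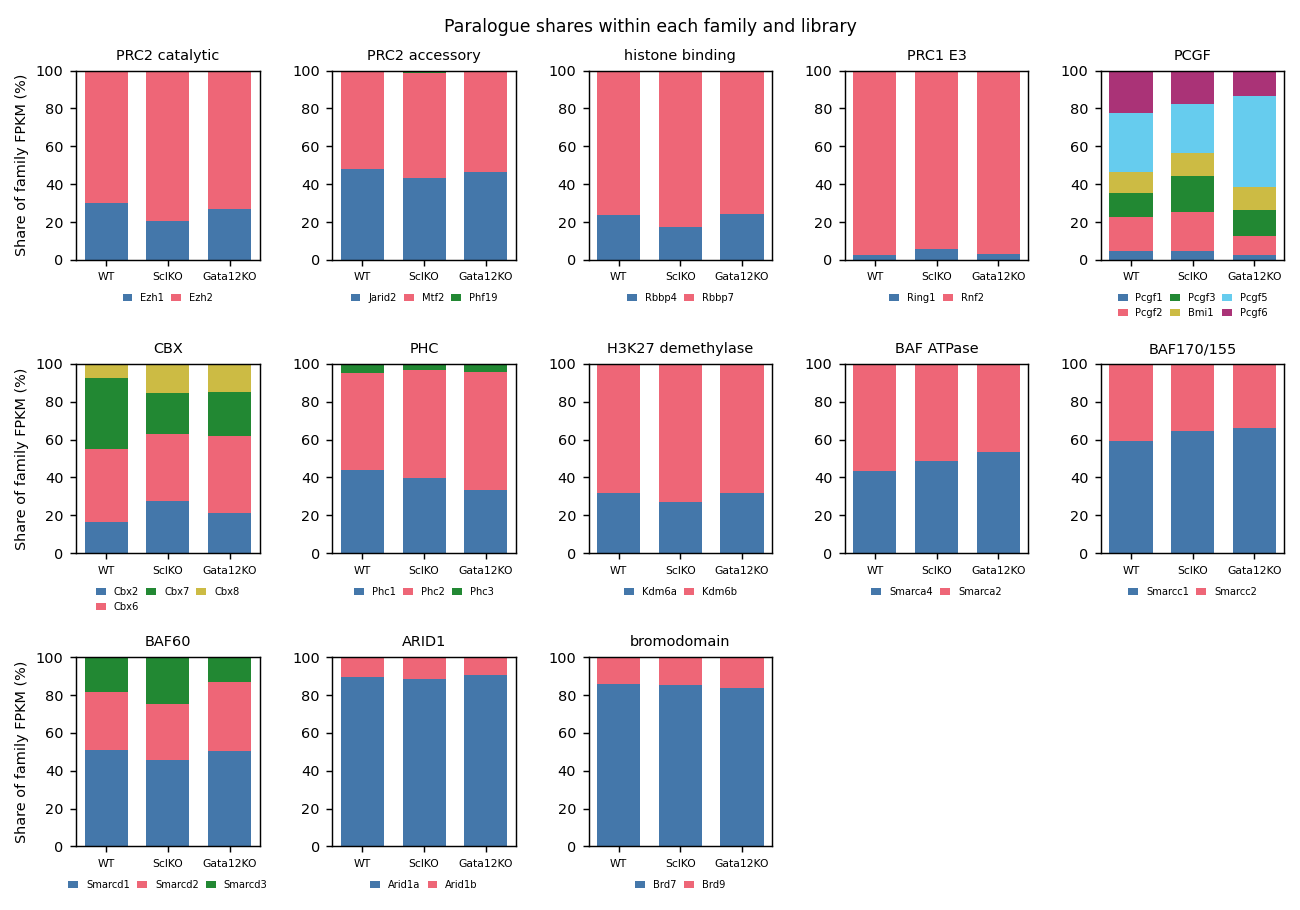
Share of each gene in the summed FPKM of its family (%), as stacked bars for WT, SclKO and the library labelled Gata12KO in 13 families. The PRC2 accessory family is grouped by role. Pcgf5 takes 47.7% of PCGF levels in the library labelled Gata12KO, and Cbx7 takes less of the CBX bar in both other libraries than in WT.

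For 16 genes the files give several RefSeq entries, and the values above are their sums. Their bounds are summed too, which can make them wider than those of genes with a single entry. The split between entries that share exons is an estimate by Cufflinks. For some entries its bounds are wider than counting error, as for 2 of the 4 Dpy30 entries in SclKO. Smarca2 has a 33-exon entry of 5813 nt and a 9-exon entry of 1962 nt that starts within the gene (chromosome 19, 26822893 on mm9) and shares 6 exons with the long one. The long entry was at 19.5 FPKM (18.8 to 20.2) in WT, 36.2 (35.2 to 37.2) in SclKO and 19.4 (18.8 to 19.9) in the library labelled Gata12KO. The short entry had 22.8, 16.1 and 13.9 FPKM. The long entry was thus 1.86-fold higher in SclKO than in WT, the short entry was 1.42-fold higher in WT, and their sum hides both. Without the short entry Smarca4 held 62.5%, 57.6% and 66.1% of the ATPase pair and led in each library.

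Smarcd2 (BAF60B), which is needed in granulocyte development, has a 12-exon entry and a 13-exon entry whose extra 480 nt first exon (chromosome 11, 106133807 to 106134286, reverse strand of mm9) lies upstream. The 13-exon entry was at 1.13 FPKM (0.816 to 1.45) in WT, 5.44 (4.76 to 6.12) in SclKO and 3.28 (2.88 to 3.69) in the library labelled Gata12KO. WT was lowest and SclKO highest with all bounds apart, at 4.80-fold and 2.90-fold above WT. The 12-exon entry had 11.9, 8.51 and 9.02 FPKM and was highest in WT. Jarid2 also divided unlike in the libraries. Its 18-exon entry, whose first exon lies downstream of that of the others, held 17.0% (15.4 to 18.6) of Jarid2 in WT, 47.8% (45.2 to 50.3) in SclKO and 47.4% (45.8 to 48.9) in the library labelled Gata12KO. Its 5670 nt entry of 19 exons had 17.4, 7.11 and 8.89 FPKM. Most Phc2 came from a 7-exon entry that starts within the gene (24.7, 34.9 and 33.9 FPKM), and the 15-exon entry that starts farthest upstream had 3.40, 2.35 and 3.65 FPKM. Without the short entry Phc1 would lead the PHC family in each library (79.6%, 85.5% and 76.0%). For Suz12, an entry without a 69 nt exon (chromosome 11, 79812559 to 79812627, forward strand of mm9) held 19.8% in WT (17.9 to 21.7) and was near 0 in the other libraries. No fixed rule picked the genes named here, and entries of other genes changed too. A 13-exon Mtf2 entry held 22.8% in WT and near 0 in the other libraries. A Men1 entry of 2666 nt held near 0 in WT, 23.4% in SclKO and 13.4% in the library labelled Gata12KO. A 14-exon Phc3 entry held 14.8%, 0 and 12.7% in the same order. The split of Phc1 had intervals that overlapped throughout. The part of the assignment of shared reads in these values was not tested.

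**Figure D4:**
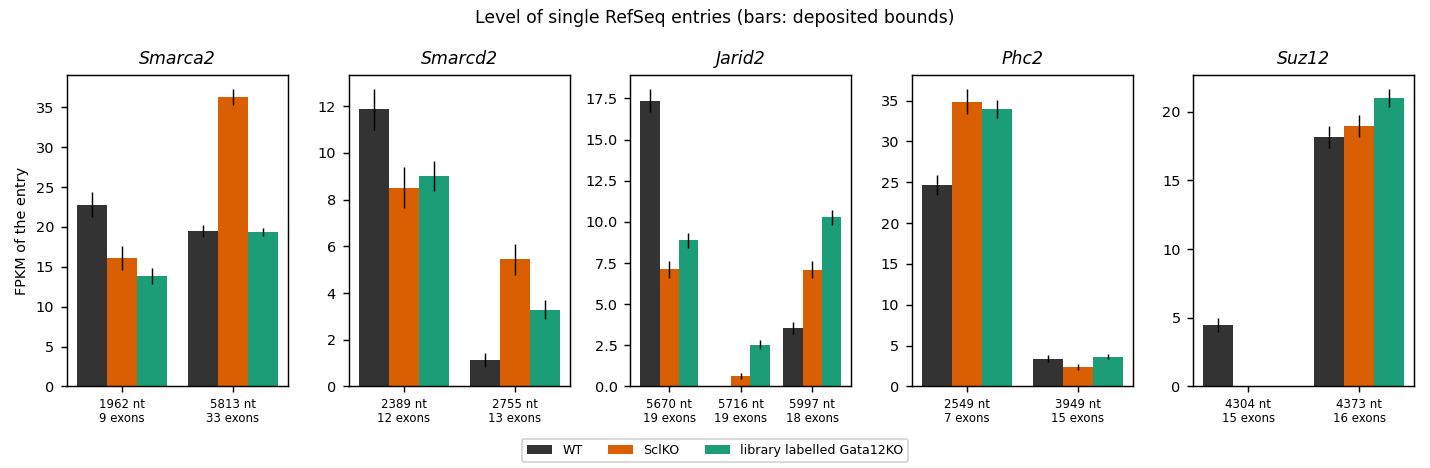
FPKM of single RefSeq entries of Smarca2, Smarcd2, Jarid2, Phc2 and Suz12, 1 bar per library with the deposited bounds, for entries above 0.5 FPKM in any library. The long Smarca2 entry is highest in SclKO (36.2 FPKM) and the short one in WT (22.8), and the longer Smarcd2 entry is lowest in WT (1.13).

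Other genes of these complexes were counted in the same way. From a list of 36 accessory subunits, all were found and 34 had at least 1 FPKM in any library. By the 2-fold rule 0 were called in any of the 3 comparisons. At 1.5-fold, 2 of 34 were higher in SclKO than WT, where 7.89% of all genes were. They were Bap1, the H2A deubiquitinase that opposes PRC1 (10.54 FPKM in WT, 16.5 in SclKO and 22.1 in the library labelled Gata12KO), and Bcl7c, a BAF subunit (9.03, 15.9 and 8.57). Between the library labelled Gata12KO and WT, Bap1 and Phf10, a PBAF subunit (9.18, 13.5 and 14.4), were higher, where 4.77% of all genes were, and none was lower. Bap1 was 2.09-fold above WT by FPKM in that library and just under the 2-fold limit on the log2 scale with its pseudocount. Against SclKO, the library labelled Gata12KO had Sfmbt1 higher (2.11 FPKM in SclKO and 4.90) and Bcl7c lower, beside 7.86% and 11.3% of all genes. These 4 genes are named after their values were seen.

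Upstream sequences are shown for the genes called against WT at 1.5-fold that have 1 start in the RefSeq promoter table, namely Pbrm1, Cbx7, Smarcd3 and Smarca4, since the study asked for targets of Scl and GATA factors. Pcgf5 has 3 listed starts and is left out. Each sequence is the 250 bases before the RefSeq start on GRCm38.p6, 5′ to 3′ on the strand of the gene. Capitals mark AGATAA or TGATAA on either strand, which contain the core bound by GATA factors, and CANNTG, the E-box bound by Scl with its partners. The intervals are chr14:31018888-31019137 (forward) for Pbrm1, chr15:79932647-79932896 (reverse) for Cbx7, chr5:24602003-24602252 (reverse) for Smarcd3 and chr9:21615919-21616168 (forward) for Smarca4.
Pbrm1: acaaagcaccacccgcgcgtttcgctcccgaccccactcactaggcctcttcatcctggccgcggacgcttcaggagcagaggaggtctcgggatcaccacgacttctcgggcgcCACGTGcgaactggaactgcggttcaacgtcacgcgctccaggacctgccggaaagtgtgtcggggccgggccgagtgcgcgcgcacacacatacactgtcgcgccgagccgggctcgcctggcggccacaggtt
Cbx7: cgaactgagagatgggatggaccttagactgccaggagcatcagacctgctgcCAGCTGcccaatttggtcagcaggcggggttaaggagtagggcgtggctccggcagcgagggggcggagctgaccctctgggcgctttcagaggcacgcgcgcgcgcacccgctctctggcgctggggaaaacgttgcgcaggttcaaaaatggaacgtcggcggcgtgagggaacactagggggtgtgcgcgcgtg
Smarcd3: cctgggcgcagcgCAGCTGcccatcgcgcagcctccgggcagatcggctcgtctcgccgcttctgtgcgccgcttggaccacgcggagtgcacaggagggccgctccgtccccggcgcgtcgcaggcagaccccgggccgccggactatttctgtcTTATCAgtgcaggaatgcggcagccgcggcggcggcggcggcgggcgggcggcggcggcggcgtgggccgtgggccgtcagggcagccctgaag
Smarca4: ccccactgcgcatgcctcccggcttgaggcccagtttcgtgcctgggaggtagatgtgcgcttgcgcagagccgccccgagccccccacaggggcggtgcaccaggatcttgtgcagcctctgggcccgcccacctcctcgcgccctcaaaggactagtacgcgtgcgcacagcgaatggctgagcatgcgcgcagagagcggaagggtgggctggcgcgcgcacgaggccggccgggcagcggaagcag
The windows of Pbrm1, Cbx7 and Smarcd3 hold 1 CANNTG match each and that of Smarca4 holds 0, while 66.2% of 32851 windows of this length in the table hold at least 1. The Smarcd3 window holds 1 TGATAA match, read on the opposite strand and starting 94 bases before the gene, and the other 3 windows hold none. Of all windows 16.6% hold AGATAA or TGATAA. The GC content was 67.2% for Pbrm1, 64.8% for Cbx7, 76% for Smarcd3 and 70.8% for Smarca4, beside a median of 52.4% over all windows. A match describes these letters and says nothing of binding.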

How the data were processed

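RNA of 3 sorted libraries was used, 1 each for WT, SclKO and Gata12KO. The authors deposited FPKM with lower and upper bounds for 30123 RefSeq entries per library, written by Cufflinks per the file's source column. The submitters' processing notes name Cufflinks 2.0.1, Cuffdiff, TopHat2 2.0.4 and 2 builds (hg19, mm9) without roles, and the coordinates in the files are taken as mm9 because the samples are mouse. Strand use and the treatment of reads that fit several places are not given in the sources used here. Symbols came from the RefSeq gene table (29030 of 29610 accessions) and GENCODE (173). The 134 entries whose symbol differed between files, none of a described gene, were left out. FPKM and bounds were summed per gene (Python 3.11.15, pandas 2.3.3). Length trends are medians in 20 length bins. The call rule was run on simulated libraries of equal depth with Poisson noise alone, and the share intervals on random draws. These runs check the code and say nothing of variation between cultures or of changes near the limits. Genes, lists and families were chosen with earlier results of these data known. The rule for named genes took every listed gene, accessory genes called at 2-fold (0 were), and the targeted genes. Alternatives changed the pseudocount, FPKM minimum, scaling, length correction, bounds, limits and entries used.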

Additional observations from a re-analysis of the deposited data

How the results depend on the processing

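No paired analysis was possible because each group has 1 library, and for the same reason no library could be left out. Calls of the described genes kept their counts with no FPKM minimum, with a minimum of 5 FPKM, with median-of-ratios scaling and with bounds combined in quadrature. In the library labelled Gata12KO against WT, where Pbrm1 alone was called higher and 0 genes lower, TPM gave 5 higher, scaling to transcripts of 300 nt or longer gave 2 higher, and a pseudocount of 0.1 FPKM gave 1 lower (Cbx7). Over all genes, 85 were called higher there as reported, 1348 under TPM and 249 with the sum over transcripts of 300 nt or longer. The pseudocount of 0.1 FPKM took the lower calls of all genes from 415 to 714. Removing the length trend there left 1 higher, which was Pcgf5 in place of Pbrm1, and 154 higher over all genes. Against SclKO, TPM gave 6 higher and 0 lower in place of 1 and 1. Over all genes it gave 2174 higher and 122 lower there, in place of 375 and 416. The 1.5-fold limit gave 1 higher and 1 lower in SclKO against WT, 2 and 2 in the library labelled Gata12KO against WT, and 2 and 4 against SclKO. A limit of 5 percentage points gave 7 families with a share shift in SclKO against WT in place of 1, 6 in the library labelled Gata12KO against WT in place of 3, and 6 against SclKO in place of 2. Using only entries that span at least 50% of their gene's widest entry, chosen after seeing the data, gave 1 higher gene and 2 shifted families in SclKO against WT, and 2 higher genes in the library labelled Gata12KO against WT, the added gene being Smarcd2 in each. It also ended the PHC shift in the library labelled Gata12KO against WT, leaving 2 families of 3. Over all genes, 249 were then higher in SclKO against WT, in place of 235. In the library labelled Gata12KO against WT, 96 were higher in place of 85. TPM rests on the library sum, which moved the median of all genes by 0.60 in the library labelled Gata12KO against WT; the cause of that shift was not tested. Over all genes the share of lower among called genes was 66.7% in SclKO against WT, 83% in the library labelled Gata12KO against WT and 52.6% against SclKO. TPM made these 75.9%, 8.05% and 5.31%, and the sum over transcripts of 300 nt or longer 53.5%, 44.4% and 39.3%. Median-of-ratios scaling gave 71.9% in the library labelled Gata12KO against WT, and removal of the length trend 52.3%. Depth limits Phf19, Ring1 and Cbx8, which rest on under 100 fragments in each library.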

Other observations

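Some of the CBX genes are neighbours, and their levels can be set side by side. Cbx2 and Cbx8 face each other on chromosome 11 with 7165 bp between them. In SclKO both were above WT with bounds apart (Cbx2 2.75 against 1.71 FPKM, Cbx8 1.57 against 0.786), while in the library labelled Gata12KO Cbx2 equalled WT at 1.71 FPKM and Cbx8 had 1.18, with bounds that overlapped those of WT. Cbx6 and Cbx7 lie on the same strand of chromosome 15 with 81473 bp between them. Cbx7 was lower than WT in both other libraries by the 1.5-fold rule, while Cbx6, with 4.05 FPKM in WT, had 3.57 in SclKO with overlapping bounds and 3.22 in the library labelled Gata12KO with bounds apart.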
